A study of Mus musculus with 24 samples.

Results

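Vsig4, Lyve1, Folr2, Cd163, Mrc1 and Timd4 are 6 genes that are widely used to mark tissue-resident-type macrophages, and they were followed here through a mouse tumour experiment with an IRE1α inhibitor and a taxane. They were taken from the gene count table by matching each row's Ensembl identifier to the symbol, which gave 6 of 53465 gene rows. The tumours were 2153L, a p53-null genetically engineered mouse model of triple-negative breast cancer, transplanted as fragments into the cleared mammary fat pads of female BALB/c mice aged 6 to 8 weeks and randomised at about 100 mm3. Every host kept its own immune cells, and every tumour, the vehicle tumours included, came from this 1 transplanted p53-null line. Vehicle mice received neither drug. ORIN1001 mice received the inhibitor of the IRE1α ribonuclease at 150 mg/kg by mouth every day, docetaxel mice received this microtubule-stabilising taxane by weekly injection into the peritoneum at 10 mg/kg, and combination mice received both. Mice on a single drug also received the vehicle of the other drug. Each group held 3 tumours, called biological replicates in the labels, and each tumour gave a pair of libraries from bulk tumour cells, for 24 libraries in 8 groups. The input library holds total RNA depleted of ribosomal RNA. The J2 library holds RNA pulled down with J2, an antibody that binds double-stranded RNA.

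Macrophages in tissue are usually described as a resident-type population, which settles early or matures slowly in place and takes up debris, iron and lipoproteins, and a population renewed from blood monocytes. In mammary tissue, cells with Lyve1, Folr2 and Mrc1 lie along vessels and ducts, and in mammary tumours they are commonly set against monocyte-derived cells with Trem2 or Spp1. All 6 genes encode surface proteins that bind or take up material. Vsig4 is the complement receptor of the immunoglobulin superfamily on resident macrophages, and Folr2 is the folate receptor beta. Lyve1 is a hyaluronan receptor that lymphatic vessels also carry. Mrc1 is the mannose receptor, Cd163 is the scavenger receptor for haemoglobin bound to haptoglobin, and Timd4 binds phosphatidylserine on dying cells. The 6 genes were proposed with results of these data known, and which values were in view is not recorded. Their levels, fold changes and calls are therefore a description and support nothing beyond themselves.

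The genes lie at separate places of the mm10 genome (RefSeq annotation of GRCm38.p6). Vsig4 is at chrX:96247201-96293438, Lyve1 at chr7:110850607-110862953, Folr2 at chr7:101839988-101857190, Cd163 at chr6:124304636-124330529, Mrc1 at chr2:14229414-14332023 and Timd4 at chr11:46810786-46844333. Counts cover each gene as a whole. The Folr2 locus overlaps the gene model Gm10602, the Cd163 locus overlaps Gm52877 and the Mrc1 locus contains Mir511, so reads of these overlapping genes may be split or shared in a way the sources used here do not state. RefSeq's promoter table for the same build held 5 of the 6 genes and did not hold Lyve1. The 250 bases before the annotated start of 3 genes that moved together in the input (Vsig4, Folr2 and Mrc1) and of Cd163, which moved apart from them, are printed 5′ to 3′ on the gene's own strand. For Cd163, and for Timd4, whose window is not printed, the start used lies inside the locus given above. The last bases of their windows therefore fall within the locus. Capitals mark matches on either strand to the PU.1 core GAGGAA, the MAF motif TGCTGA or the MEF2 core TATTTA, 3 motifs of macrophage or general transcription factors that do not overlap each other in these windows.
Vsig4, chrX:96293439-96293688, minus strand: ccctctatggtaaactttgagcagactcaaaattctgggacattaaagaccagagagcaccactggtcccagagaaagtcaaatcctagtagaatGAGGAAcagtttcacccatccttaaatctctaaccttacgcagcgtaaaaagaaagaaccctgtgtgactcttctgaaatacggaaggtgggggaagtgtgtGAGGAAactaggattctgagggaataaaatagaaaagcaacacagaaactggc
Folr2, chr7:101857191-101857440, minus strand: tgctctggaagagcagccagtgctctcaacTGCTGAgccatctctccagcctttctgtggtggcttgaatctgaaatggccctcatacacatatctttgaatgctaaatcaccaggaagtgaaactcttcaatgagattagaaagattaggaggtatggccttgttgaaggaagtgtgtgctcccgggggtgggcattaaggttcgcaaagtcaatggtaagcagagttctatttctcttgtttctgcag
Mrc1, chr2:14229164-14229413, plus strand: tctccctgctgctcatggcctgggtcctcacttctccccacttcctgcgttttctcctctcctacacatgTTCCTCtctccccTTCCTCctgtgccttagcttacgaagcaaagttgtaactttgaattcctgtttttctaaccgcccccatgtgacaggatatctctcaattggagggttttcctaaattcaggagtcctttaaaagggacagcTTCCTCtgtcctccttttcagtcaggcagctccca
Cd163, chr6:124304401-124304650, plus strand: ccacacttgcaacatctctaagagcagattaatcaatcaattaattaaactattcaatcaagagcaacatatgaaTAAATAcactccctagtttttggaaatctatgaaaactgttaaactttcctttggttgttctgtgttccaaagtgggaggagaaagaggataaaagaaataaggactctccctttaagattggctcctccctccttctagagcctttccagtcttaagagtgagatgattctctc
The Vsig4 window held 2 PU.1 cores, 155 and 53 bases before the start, and the Mrc1 window held 3, at 180, 167 and 35 bases. The Folr2 window and that of its inner start each held 1 MAF motif, and the Timd4 window held 2. The Cd163 window held 1 MEF2 core, 175 bases before the start, and neither of the other motifs. Of 32851 mouse promoter windows of the same length, 23.25% held a PU.1 core, 16.08% a MAF motif and 12.71% a MEF2 core. These matches describe letters only, and no binding was measured.

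The libraries differed in depth. Input libraries held 3.27 to 63.3 M (mega) gene counts and J2 libraries 2.54 to 18.7 M. In docetaxel tumour 3 the input library held 3.27 M counts, of which 74.7% lay at ribosomal RNA loci or mitochondrial genes, against 1.35% to 3.51% in the other inputs. Vsig4, Lyve1, Folr2 and Timd4 had 0 counts there, which allows up to 3.48 counts per M of gene counts (CPM), and Cd163 had 3. This library also differed in content. Adipose tissue markers summed to 308 CPM, against at most 21.8 in any other input, and fibroblast markers to 2508 CPM, against at most 962. Its Spearman correlation with docetaxel inputs 1 and 2 was 0.81 and 0.85, against at least 0.97 in other pairs of inputs within a group. In the combination J2 libraries the share at ribosomal RNA loci or mitochondrial genes was 38.3%, 59.1% and 23.5%, against 1.53% to 15.9% in the other J2 libraries. Values that rest on these libraries are given with them and, where they move, without them. A library with 0 counts is read as lying anywhere up to its own limit of 3 counts, so no tumour is called lower or higher on the strength of a 0 that this limit spans. Group means take 0 counts as 0, so docetaxel input means that include tumour 3 may be too low for genes with 0 counts there. Levels are in CPM after trimmed-mean (TMM) scaling over all 24 libraries. They are not per length, because no exon lengths were used, so levels of different genes are not ranked against each other.

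The labelled cells were checked with marker genes. Pan-macrophage genes were counted in the tumours of all 4 groups: Csf1r, the receptor for the macrophage growth factors, stood at 62.7 to 85.7 CPM in vehicle inputs, and Adgre1, a macrophage adhesion receptor gene, at 17.6 to 25.3 CPM. Epithelial genes of a mammary tumour were also present, with Epcam at 686 to 1057 CPM in vehicle inputs. Cd209f, Cd209d and Marco, further genes of some resident macrophages, stayed under 1 CPM in every input but docetaxel tumour 3 (Cd209f at most 0.958). In that library 0 counts allow up to 3.48 CPM. Vsig4, Cd163 and Timd4 stayed under 1 CPM in every vehicle input. Cbr2, a resident-type gene outside the 6, stood at 28.3 ± 5.05 CPM in vehicle inputs. Lyve1 also marks lymphatic vessels. The list of lymphatic and sinusoidal endothelial markers summed to 55.4 to 77.6 CPM in vehicle inputs and 58.2 to 105 CPM with ORIN1001, and Pdpn and Fcgr2b, which other cells also express, made up most of it. Of the others, Ccl21a had 0 counts in all 12 inputs. Apart from docetaxel tumour 3, Prox1, the defining lymphatic transcription factor, was at most 1.13 CPM, Mmrn1 at most 0.482 CPM and Stab2 at most 1.16 CPM. Lyve1 itself stood at 1.07 CPM on average in vehicle. The part of lymphatic vessels in its level was not tested. In bulk RNA, fewer cells of a type and less RNA per cell cannot be told apart, and this holds for every level that follows.

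In the input, Vsig4, Lyve1, Folr2 and Mrc1 had their highest mean in ORIN1001 tumours, and within that group they were lowest in tumour 1 and highest in tumour 3. Vsig4 stood at 0.115, 0.950 and 0.976 CPM in vehicle tumours 1, 2 and 3, at 2.45, 5.31 and 10.4 with ORIN1001, at 0.107, 0.0535 and 0 with docetaxel, and at 0.551, 0.0629 and 0.186 with the combination. All 3 ORIN1001 tumours lay above every vehicle and combination tumour and above docetaxel tumours 1 and 2. Its order of means was ORIN1001 (6.07 ± 4.05 CPM; SD, n = 3), vehicle (0.680 ± 0.490), combination (0.267 ± 0.254) and docetaxel (0.0535 ± 0.0535), and the vehicle and combination ranges overlapped, as did those of combination and docetaxel. Counts were low outside the ORIN1001 group, at 4 to 38 per vehicle library and 10 or fewer per docetaxel or combination library.

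Lyve1 stood at 0.0861, 0.725 and 2.41 CPM in vehicle tumours, 2.23, 10.4 and 38.5 with ORIN1001, 1.34, 0.134 and 0 with docetaxel, and 0.551, 1.13 and 0.884 with the combination. Vehicle tumour 3 lay above ORIN1001 tumour 1, so these groups overlapped, and all other neighbours in the order of means (17.1 ± 19.0 for ORIN1001, 1.07 ± 1.20 for vehicle, 0.856 ± 0.292 for the combination, 0.491 ± 0.737 for docetaxel) overlapped as well. The SD of the ORIN1001 group exceeded its mean because tumour 3 held 17.3 times the level of tumour 1. In the vehicle group tumour 3 stood at 28.0 times tumour 1, but this ratio rests on 89 counts against 3. The ORIN1001 ratio rests on 1569 counts against 121.

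Folr2 stood at 1.23, 3.35 and 3.12 CPM in vehicle tumours, 2.45, 11.1 and 16.8 with ORIN1001, 0.963, 1.26 and 0 with docetaxel, and 0.551, 0.503 and 2.14 with the combination. ORIN1001 tumour 1 lay inside the vehicle range, and ORIN1001 tumours 2 and 3 above every other input. Means ran from 10.1 ± 7.24 CPM with ORIN1001 through 2.57 ± 1.16 with vehicle and 1.06 ± 0.932 with the combination to 0.740 ± 0.658 with docetaxel, and each neighbour in that order overlapped the next. Without docetaxel tumour 3 the docetaxel mean was 1.11 CPM and stood above that of the combination.

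Mrc1 had the most counts of the 6 genes, with 235 to 4979 per input library apart from 17 in docetaxel tumour 3. It stood at 13.2, 31.7 and 31.4 CPM in vehicle tumours, 24.1, 94.5 and 122 with ORIN1001, 12.6, 7.40 and 19.7 with docetaxel, and 16.3, 18.2 and 23.3 with the combination. As for Folr2, ORIN1001 tumour 1 lay within the vehicle range and tumours 2 and 3 above all other inputs. The order of means was ORIN1001 (80.3 ± 50.6), vehicle (25.4 ± 10.6), combination (19.2 ± 3.60) and docetaxel (13.2 ± 6.19), with overlap between each pair of neighbours.

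Cd163 and Timd4 followed other orders. Cd163 stood at 0.459, 0.725 and 0.352 CPM in vehicle tumours, 0.866, 1.30 and 0.909 with ORIN1001, 0.749, 1.31 and 3.48 with docetaxel, and 0.991, 0.692 and 0.512 with the combination. The docetaxel mean (1.85 ± 1.44) was highest, and its value of 3.48 is 3 counts in the shallow library. Without that library the docetaxel mean was 1.03 CPM, level with ORIN1001. Every ORIN1001 and docetaxel tumour lay above every vehicle tumour, and ORIN1001 (1.03 ± 0.242), combination (0.732 ± 0.242) and vehicle (0.512 ± 0.192) followed in that order. Docetaxel and ORIN1001 overlapped, as did ORIN1001 and combination, and combination and vehicle.

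Timd4 stood at 0.316, 0.475 and 0.461 CPM in vehicle tumours, 0.663, 1.17 and 0.663 with ORIN1001, 0.268, 0.509 and 0 with docetaxel, and 1.21, 1.13 and 0.884 with the combination. It was the gene of the 6 whose highest mean was in the combination (1.08 ± 0.171), followed by ORIN1001 (0.833 ± 0.295), vehicle (0.417 ± 0.0880) and docetaxel (0.259 ± 0.254). This order takes the 0 counts of docetaxel tumour 3 as 0. They allow up to 3.48 CPM, so the place of docetaxel in the order is not settled. Without that library the docetaxel mean was 0.388 CPM. The combination and ORIN1001 tumours all lay above the vehicle tumours, the combination and ORIN1001 ranges overlapped, and so did vehicle and docetaxel. Its counts per input library were 38 or fewer.

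**Figure D1:**
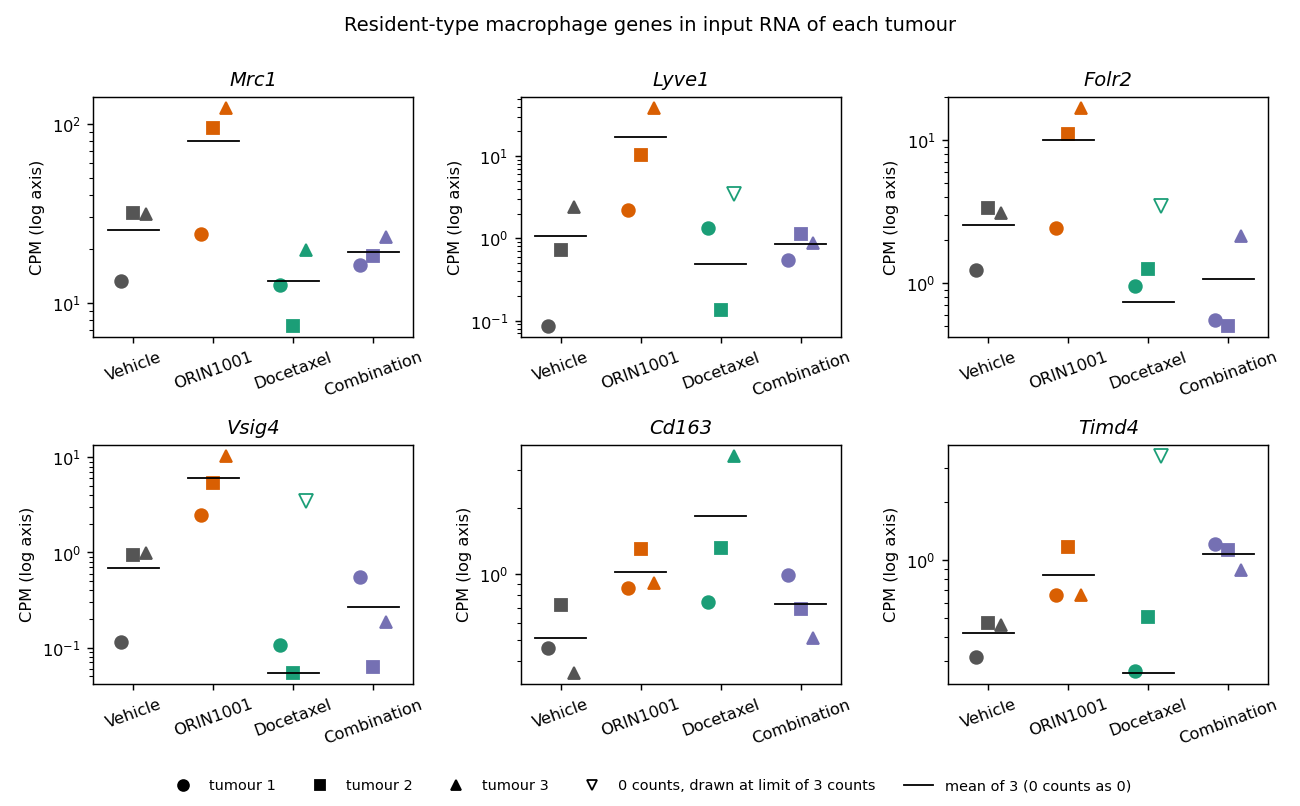
Input levels of the 6 genes in CPM (log axis) for each tumour, grouped by treatment, with the group mean as a bar. Open triangles stand at the level that 3 counts would give in a library with 0 counts. The ORIN1001 tumours are the highest group for Vsig4, Lyve1, Folr2 and Mrc1 (6.07, 17.1, 10.1 and 80.3 CPM on average). With 0 counts taken as 0, the combination has the highest mean for Timd4.

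The summed CPM of the 6 genes was set against that of 20 pan-macrophage genes, a sum that does not contain them. This ratio was 1.56%, 3.00% and 4.20% in vehicle inputs and 4.44%, 8.24% and 12.1% in ORIN1001 inputs. Every ORIN1001 tumour lay above every vehicle tumour on this ratio. In ORIN1001 tumour 1 the sum of the 6 genes (32.8 CPM) lay inside the vehicle range (15.4 to 38.8 CPM). Its pan-macrophage sum, by which the ratio divides, was lower (737 CPM) than in any vehicle tumour (922 to 1263 CPM). With docetaxel the ratio was 1.47%, 0.745% and 4.49%, the last from the shallow library, and with the combination 1.31%, 1.64% and 1.61%. Mrc1 gives most of the sum of the 6.

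With ORIN1001 alone against vehicle, which asks what inhibition of the IRE1α ribonuclease changed, all 6 genes had a positive estimate and 0 passed the adjusted threshold. The quasi-likelihood test of edgeR, adjusted over 17768 genes, passed 0% of all genes in this comparison. At an unadjusted p under 0.05 there were 787 genes and 5 of the 6 (all but Cd163), and DESeq2 passed 1 of the 6, Vsig4 (adjusted p = 0.0495), beside 0.191% of all genes. The log2 fold changes (± SE) were 3.11 ± 0.76 for Vsig4, 3.93 ± 1.16 for Lyve1, 1.95 ± 0.70 for Folr2, 1.63 ± 0.52 for Mrc1, 0.97 ± 0.46 for Cd163 and 0.96 ± 0.40 for Timd4. Their median was 1.79 beside -0.01 over all genes tested. The ranges of the groups did not overlap for Vsig4, Cd163 and Timd4, which were higher in every ORIN1001 tumour; 7.06% of all genes did the same.

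ORIN1001 tumour 3 carried much of the size of these differences. The ratio of group means was 8.92 for Vsig4, 15.9 for Lyve1, 3.95 for Folr2 and 3.16 for Mrc1, and without that tumour it was 5.71, 5.88, 2.64 and 2.33. For Cd163 and Timd4 the ratio was 2.00 for each, and 2.12 and 2.20 without it. On the fitted scale Lyve1 was at 3.93, and at 2.53 without ORIN1001 tumour 3, and leaving out any single tumour kept all 6 estimates positive, from 0.64 for Timd4 to 5.34 for Lyve1.

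Docetaxel against vehicle gave 0 calls among the 6 genes, again beside 0% of all genes, with 2 of the 6 and 1857 genes at an unadjusted p under 0.05. Vsig4 was estimated at -3.30 ± 1.08, from 2 and 4 counts in docetaxel tumours 1 and 2. Folr2 (-1.33 ± 0.78), Mrc1 (-1.17 ± 0.56), Lyve1 (-0.88 ± 1.30) and Timd4 (-0.13 ± 0.45) had negative estimates and Cd163 a positive one, 1.27 ± 0.51. Vsig4 was lower in docetaxel tumours 1 and 2 than in any vehicle tumour. Cd163 was higher in every docetaxel tumour than in any vehicle tumour, as 5.43% of genes were. Without the shallow docetaxel tumour 3 the estimates were -3.29 for Vsig4, -1.21 for Folr2, -1.40 for Mrc1, -0.89 for Lyve1, -0.04 for Timd4 and 1.01 for Cd163, with 0 calls.

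**Figure D2:**
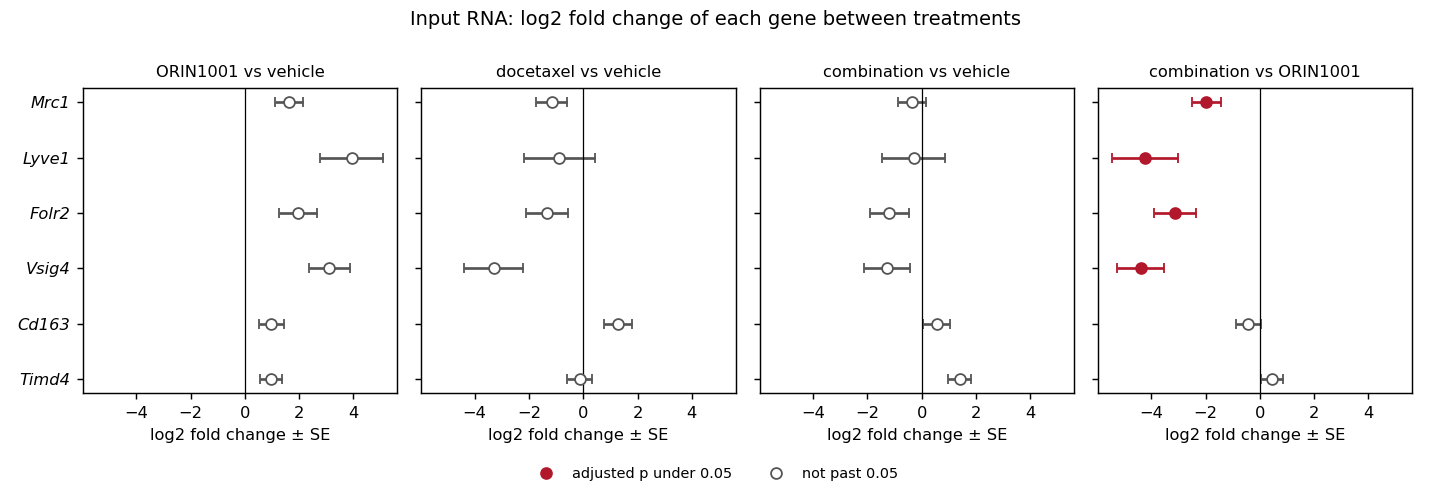
Fitted log2 fold changes in the input for the 6 genes (points, with bars of 1 SE) in each comparison of treatments, 3 tumours a group. ORIN1001 against vehicle lies above 0 for all 6 genes, and combination against ORIN1001 lies below 0 for all but Timd4.

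The combination was compared with vehicle and with each drug alone; these comparisons share libraries, so their values stand side by side. Against vehicle, 0 of the 6 passed, beside 4.77% of all genes, with 1 of the 6, Timd4, at an unadjusted p under 0.05. Timd4 was at 1.40 ± 0.41 (adjusted p = 0.0632) and did not overlap, as 19.9% of genes did in that direction. The other estimates were -1.28 ± 0.85 for Vsig4, -1.18 ± 0.73 for Folr2, -0.35 ± 0.51 for Mrc1, -0.30 ± 1.15 for Lyve1 and 0.55 ± 0.48 for Cd163. Against docetaxel, 0 of the 6 passed, beside 7.43% of genes, with Timd4 at 1.53 ± 0.46 (adjusted p = 0.0632) and above docetaxel tumours 1 and 2. Without docetaxel tumour 3 in the fit, Timd4 passed in both comparisons (1.41, adjusted p = 0.0233 against vehicle, and 1.46, adjusted p = 0.0336 against docetaxel). In those fits 28% and 23.8% of all genes passed, so 1 of 6 is no more than the share over all genes.

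Against ORIN1001 alone, 4 of the 6 genes fell with the combination. The log2 fold change was -4.40 ± 0.86 for Vsig4 (adjusted p = 0.0187), -4.23 ± 1.21 for Lyve1 (adjusted p = 0.0433), -3.13 ± 0.76 for Folr2 (adjusted p = 0.0288) and -1.98 ± 0.53 for Mrc1 (adjusted p = 0.036). The same test passed 12.6% of all genes, 5.43% as lower. Every combination tumour lay below every ORIN1001 tumour for these 4, as was the case for 31.9% of all genes. Cd163 was at -0.42 ± 0.47 (adjusted p = 0.572) and Timd4 at 0.44 ± 0.40 (adjusted p = 0.482). The median of the 6 was -2.56 beside -0.02 over all genes.

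These 4 calls depended on single tumours. Without ORIN1001 tumour 2, ORIN1001 tumour 3, combination tumour 2 or combination tumour 3, 0 of the 6 passed, and without combination tumour 1 only Vsig4 did (adjusted p = 0.0213). The calls over all genes went with them, from 12.6% to 1.14%, 0%, 0.209% and 0.75% without those 4 tumours, and to 11.8% without combination tumour 1. The estimates stayed negative, for Vsig4 between -5.42 and -3.79, for Lyve1 between -4.76 and -2.83, for Folr2 between -4.19 and -2.59 and for Mrc1 between -2.42 and -1.58, when any single tumour was left out.

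The interaction asks whether the combination departs from adding up the effects of ORIN1001 and docetaxel. It passed for 0 of the 6 and for 0% of genes, with 1 of the 6, Cd163, among 3134 genes at an unadjusted p under 0.05. It was -1.69 ± 0.69 for Cd163 (adjusted p = 0.23), -3.35 ± 1.72 for Lyve1, -1.80 ± 1.05 for Folr2, -1.10 ± 1.51 for Vsig4, -0.81 ± 0.75 for Mrc1 and 0.57 ± 0.60 for Timd4. Limma-voom with sample weights passed Cd163 (-1.94, adjusted p = 0.0189), beside 22.4% of all genes.

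Across the 12 input libraries, Vsig4, Lyve1, Folr2 and Mrc1 rose and fell in the same tumours, with Pearson r of log2 CPM from 0.68 (Folr2 with Mrc1) to 0.87 (Vsig4 with Lyve1). Cd163 had r of -0.50 to -0.0027 with the other 5, and 0.10 to 0.40 without docetaxel tumour 3. Timd4 had r of 0.26 to 0.61 with the first 4, and 0.046 to 0.35 without docetaxel tumour 3. These points share treatment groups and depth, and the values describe the libraries only.

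Among 12184 genes compared by this measure, those with profiles close to the mean of the 6 included Stard8 (r = 0.93), the growth factor gene Igf1 (0.93), the plasma glutathione peroxidase gene Gpx3 (0.92), the chemokine gene Ccl6 (0.92), Tmem50b (0.91), Selenop, the selenium transport protein (0.89), and the chemokine gene Ccl8 (0.89). For single genes the nearest were Ccl8 for Vsig4 (0.92), Stard8 for Lyve1 (0.93), the sulfatase gene Sulf1 for Folr2 (0.98) and Nxpe5 for Mrc1 (0.95). Timd4 was nearest to the interferon-induced chemokine gene Cxcl9 (0.95, and 0.85 without docetaxel tumour 3). Cd163 was nearest to Jdp2 (0.90), and 0.76 remained for that pair without docetaxel tumour 3.

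A list of 25 further genes of resident-type macrophages was read beside the 6, and 21 were tested. With ORIN1001 against vehicle, 20 of 21 had a positive estimate, 0 passed, and the median log2 fold change was 1.27. Smallest in p were Ednrb, an endothelin receptor gene (2.37 ± 0.59), Fcna, which encodes ficolin A (3.18 ± 0.80), Igf1 (1.57 ± 0.42) and the haem oxygenase gene Hmox1 (1.31 ± 0.36). With the combination against ORIN1001, 7 of the 21 fell and 1 rose, and the median was -1.55. Over all genes 5.43% passed as lower, and 12.6% in either direction. The 7 were Hmox1 (-2.31 ± 0.37), Cbr2 (-1.55 ± 0.29), the coagulation factor XIII gene F13a1 (-3.54 ± 0.67), Ednrb (-3.01 ± 0.61), Fcna (-4.38 ± 0.91), Gas6, a ligand of the receptors that clear dying cells (-1.57 ± 0.34), and Pf4 (-2.14 ± 0.48). These calls depended on single tumours as those of the 6 did. Without ORIN1001 tumour 3, combination tumour 2 or combination tumour 3, 0 of the list passed, 4 fell without ORIN1001 tumour 2, 11 without ORIN1001 tumour 1 and 15 without docetaxel tumour 3 (beside 35.2% of all genes passing). The median stayed between -1.78 and -1.02 when any single tumour was left out.

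For each list that follows, 0 genes passed in the combination against ORIN1001 without ORIN1001 tumour 3, and without combination tumour 2 or 3 the dendritic cell marker Itgax alone passed. Over all 17768 genes the full fit of that comparison passed 1279 as higher and 965 (5.43%) as lower. With the combination against vehicle, 497 passed as higher. The calls of each list stand beside these. Genes shared by all macrophages were spread less. Over the 20 pan-macrophage genes the median was 0.31 with ORIN1001 against vehicle (0 passed), 0.67 with the combination against vehicle (1 higher, Laptm5 at 1.02 ± 0.22, and 0 without any 1 of the vehicle tumours) and 0.38 with the combination against ORIN1001 (2 higher, Laptm5 at 0.84 ± 0.22 and Mpeg1, the perforin-like gene, at 1.50 ± 0.45). Their summed level was 1327 to 1726 CPM in the combination and 737 to 1572 CPM with ORIN1001, so every combination tumour lay above ORIN1001 tumour 1 on this sum. Of 15 tumour macrophage genes, 1 rose and 2 fell with the combination against ORIN1001: Vcam1 at 1.60 ± 0.29, the osteopontin gene Spp1 at -2.28 ± 0.49 and the fatty acid carrier gene Fabp5 at -2.30 ± 0.64. Trem2 stood at 11.6 ± 6.03 CPM with ORIN1001 and 12.9 ± 3.15 CPM with the combination.

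Monocyte genes gave 0 calls with ORIN1001, and with the combination against ORIN1001 2 of 11 fell, Ace (-2.27 ± 0.46) and Cd177 (-3.63 ± 0.88), which is also a neutrophil gene. The monocyte chemokine receptor gene Ccr2 stood at 61.6 ± 14.4 CPM in the combination and 29.7 ± 20.5 CPM with ORIN1001 (1.13 ± 0.59, adjusted p = 0.217). Of 16 tested growth and polarising signals, 4 rose and 1 fell with the combination against ORIN1001. These were Tgfbr1 (1.61 ± 0.30), Il6ra (1.09 ± 0.22), the macrophage growth factor gene Csf1 (0.84 ± 0.18) and Il10ra (1.49 ± 0.34), and Stat6, which relays interleukin signals (-0.57 ± 0.14). Csf1 stood at 132 ± 5.56 CPM in the combination against 77.2 ± 4.99 with ORIN1001 and 80.9 ± 4.10 with vehicle.

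Markers of other cells moved with the groups too. The 10 blood endothelial markers all had a positive estimate with ORIN1001 against vehicle (median 0.87, 0 passed), and their summed level was 75.5 to 146 CPM against 40.7 to 60.5 CPM. Cdh5, the endothelial cadherin gene, fell by 1.58 ± 0.29 with the combination against ORIN1001. Fibroblast markers were positive for 9 of 10 with ORIN1001 (median 1.24, 0 passed), with sums of 281 to 962 CPM against 253 to 269 CPM. With the combination against ORIN1001 the median was -0.84 for blood endothelial markers and -0.80 for fibroblast markers. The 6 lymphatic and sinusoidal markers tested gave 0 calls in either comparison, with sums of 58.2 to 105 CPM with ORIN1001 and 82.2 to 104 CPM with the combination. Dendritic cell markers rose for 4 of 8 with the combination against ORIN1001 (Itgax at 2.16 ± 0.33), and neutrophil markers fell for 4 of 7 (S100a8 at -3.68 ± 0.73). Their part in the values of the 6 genes was not tested.

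**Figure D3:**
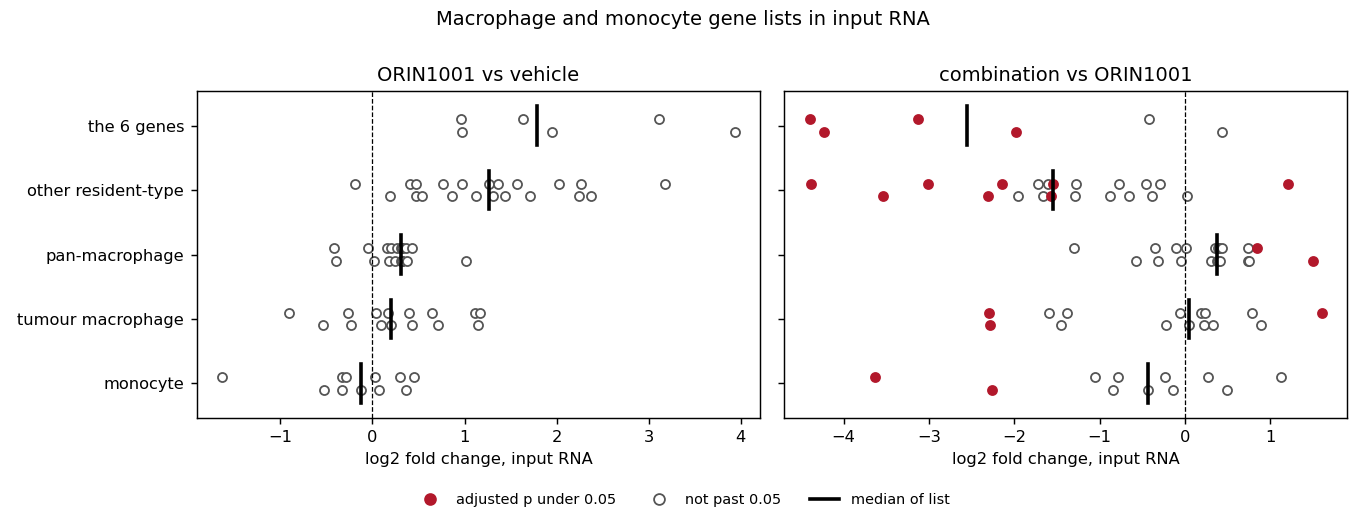
Log2 fold changes in the input for the members of each gene list (points) and their medians, for ORIN1001 against vehicle and combination against ORIN1001. The medians of the 6 genes (1.79 and -2.56) and of the further resident-type genes (1.27 and -1.55) change sign between the comparisons. Those of the pan-macrophage genes (0.31 and 0.38) do not. Of lists not drawn, blood endothelial (0.87 and -0.84), fibroblast (1.24 and -0.80) and neutrophil medians (0.06 and -3.31) also turn from positive to negative. Medians of dendritic cell, T and NK cell, adipose tissue and epithelial markers turn from negative to positive. The comparisons share the ORIN1001 libraries.

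In the J2 libraries, which hold RNA bound by the antibody to double-stranded RNA, all 6 genes were counted in at least 1 tumour of vehicle, ORIN1001 and docetaxel. Mrc1 stood at 8.72, 20.7 and 20.05 CPM in vehicle tumours, 45.6, 95.6 and 157 with ORIN1001, 8.73, 5.55 and 13.6 with docetaxel, and 11.7, 52.2 and 16.9 with the combination. For all 6 genes every ORIN1001 J2 library lay above every vehicle and docetaxel J2 library, as 3.25% of all genes did. For Timd4 this rests on 4 counts in ORIN1001 tumour 3 (0.227 CPM) against 3 in vehicle tumour 2 (0.207 CPM). Docetaxel tumour 3 held 1 count of Timd4, and 3 counts there would be 0.412 CPM. Combination tumour 2 lay above ORIN1001 tumour 1 for Mrc1.

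Cd163 stood at 0.0709, 0.276 and 0.561 CPM in vehicle J2 libraries, 5.35, 5.32 and 16.3 with ORIN1001, 0.939, 0.916 and 0.275 with docetaxel, and 0.532, 5.26 and 0.400 with the combination. All 3 ORIN1001 J2 libraries lay above all other J2 libraries, as was so for Folr2 and for 1.82% of all genes, with 76 to 286 counts against 1 to 7 in vehicle. The combination value of 5.26 is 12 counts in a library of 4.69 M.

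Lyve1 stood at 0, 0.413 and 1.12 CPM in vehicle J2 libraries, 1.62, 5.83 and 20.9 with ORIN1001, 0.276, 0.102 and 0.687 with docetaxel, and 1.06, 4.38 and 0.300 with the combination. Folr2 stood at 0.213, 0.689 and 0.882 with vehicle, 2.82, 4.80 and 12.1 with ORIN1001, 0.718, 0.611 and 0.687 with docetaxel, and 2.13, 2.19 and 0.300 with the combination. The combination values of both genes are 10 or fewer counts each.

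Vsig4 stood at 0, 0.138 and 0.321 CPM with vehicle, 0.775, 1.26 and 4.49 with ORIN1001, 0.0553, 0 and 0.137 with docetaxel and 0 in all 3 combination libraries. Timd4 stood at 0.142, 0.207 and 0.160 with vehicle, 0.352, 0.629 and 0.227 with ORIN1001, 0.111, 0.153 and 0.137 with docetaxel and 0 in all 3 combination libraries. The combination J2 libraries were shallow, and 0 counts over the group allow up to 0.212 CPM for each gene, which is above the vehicle means of both genes (0.153 for Vsig4 and 0.170 for Timd4).

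**Figure D4:**
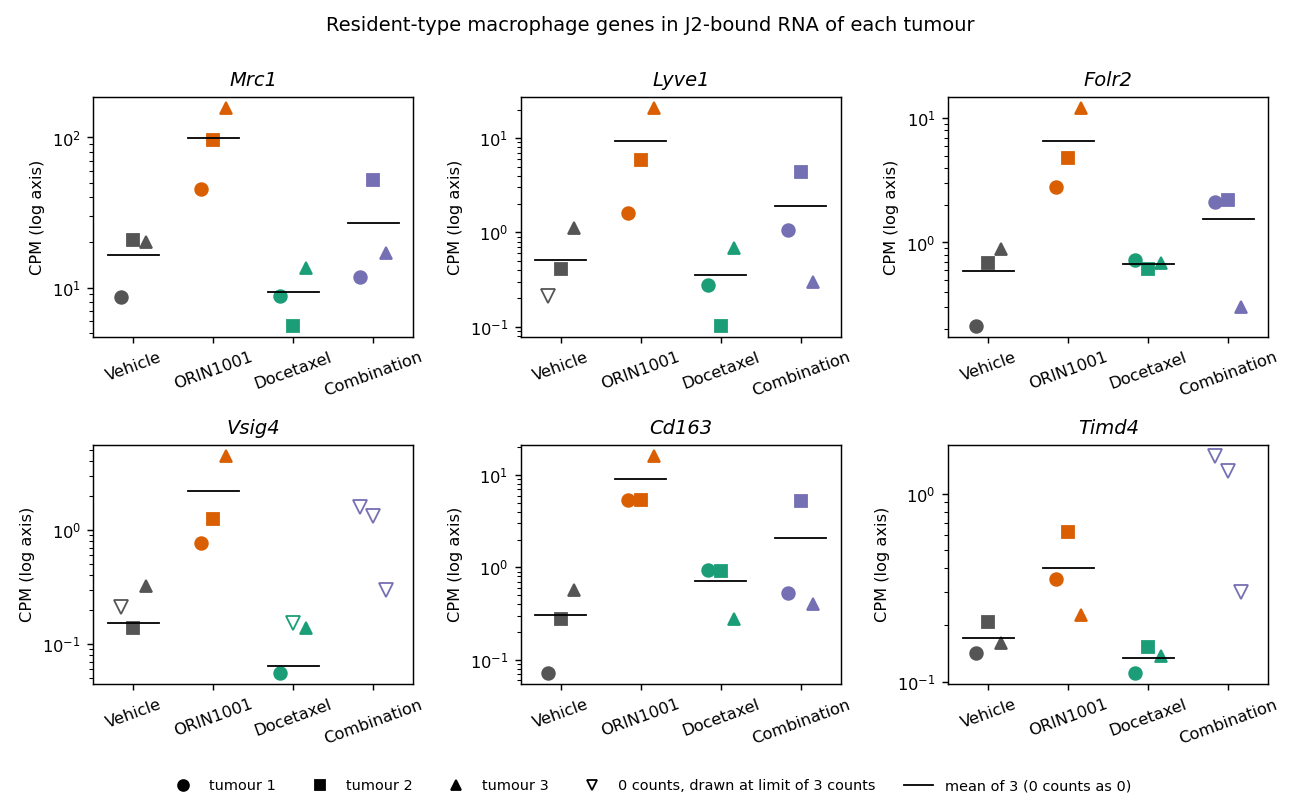
J2 library levels of the 6 genes in CPM (log axis) for each tumour, grouped by treatment. Open triangles stand at the level of 3 counts in libraries with 0 counts; ORIN1001 is the highest group for all 6 genes, and the combination libraries hold 0 counts of Vsig4 and Timd4.

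J2 enrichment sets each tumour's J2 library against its own input, as a log2 ratio. It compares each gene with the other RNA of the same libraries, and a negative value means that the gene took a smaller share of the J2-bound RNA than of total RNA. In vehicle tumours all 6 estimates were negative and 2 of the 6 passed, beside 41.4% of all genes (21.1% as lower). Vsig4 was at -2.19 ± 0.59 (adjusted p = 0.0109) and Folr2 at -2.14 ± 0.61 (adjusted p = 0.0122). Timd4 was at -1.26 ± 0.53, Lyve1 at -1.07 ± 0.58, Cd163 at -0.81 ± 0.82 and Mrc1 at -0.62 ± 0.29. Folr2, Mrc1 and Timd4 were lower in J2 than in input in each of the 3 tumours, as 39.3% of genes were. Vsig4 and Lyve1 were lower in tumours 2 and 3, and in tumour 1 their 0 J2 counts allow up to 0.213 CPM, above their inputs. Without vehicle tumour 2, 0 of the 6 passed beside 20.5% of genes, and 1 passed without vehicle tumour 1 (21.6% of genes) or 3 (23.8%).

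With ORIN1001, 2 of the 6 passed, in opposite directions, beside 28.1% of all genes (13.2% as higher and 14.9% as lower). Cd163 rose in J2 over input by 2.94 ± 0.60 (adjusted p = 0.00296). Its ratio of J2 to input was 6.18, 4.08 and 17.9 in the 3 ORIN1001 tumours, against 0.154, 0.380 and 1.59 with vehicle, 1.25, 0.698 and 0.0788 with docetaxel and 0.537, 7.60 and 0.782 with the combination. Vsig4 was lower, at -1.62 ± 0.36 (adjusted p = 0.00606), with ratios of 0.316, 0.237 and 0.430. Mrc1 was at 0.43 ± 0.28 (adjusted p = 0.277), Folr2 at -0.52 ± 0.48, Lyve1 at -0.75 ± 0.39 and Timd4 at -1.08 ± 0.42. Higher in J2 in all 3 tumours were Cd163 and Mrc1, as 28.5% of genes were, and lower were Vsig4, Lyve1 and Timd4, as 35% were. The Cd163 call held when any single tumour was left out (2.36 to 3.42), and that of Vsig4 was lost without ORIN1001 tumour 2 (adjusted p = 0.0592, beside 11.9% of genes passing).

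Docetaxel tumours gave 0 calls among the 6, beside 23.9% of all genes, with 1 of the 6 at an unadjusted p under 0.05. Estimates ran from -1.41 ± 0.62 for Timd4 to -0.49 ± 0.32 for Mrc1. Mrc1 was the 1 gene lower in J2 in all 3 tumours, as 17.5% of genes were, with ratios of 0.694, 0.749 and 0.689. In the combination 1 of the 6 passed, Timd4 as lower, beside 36.8% of genes in either direction (3550 of 17338 as lower). Its J2 libraries held 0 counts against 18 to 22 in the inputs (1.08 CPM on average), which makes it at least 5.08-fold lower against the limit of 3 counts over the group (adjusted p = 0.00173). Taken 1 tumour at a time, the limits of 1.60, 1.32 and 0.300 CPM put Timd4 below its input (0.884 CPM) in tumour 3 only. Vsig4 also had 0 J2 counts, and its inputs lay below the limit in every tumour. The other 4 genes differed between the combination tumours. In tumours 1, 2 and 3 the J2 to input ratios were 3.86, 4.36 and 0.140 for Folr2 and 1.93, 3.87 and 0.340 for Lyve1, so tumour 3 stood apart. They were 0.537, 7.60 and 0.782 for Cd163 and 0.718, 2.87 and 0.727 for Mrc1, so here tumour 2 did. Ribosomal RNA and mitochondrial genes held 38.3%, 59.1% and 23.5% of the counts of these 3 J2 libraries, and the part of this in the ratios was not tested. Averaged over the 4 treatments, 3 of the 6 passed as lower, Vsig4, Folr2 and Timd4, beside 55% of all genes in either direction (5205 of 17338 as lower).

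**Figure D5:**
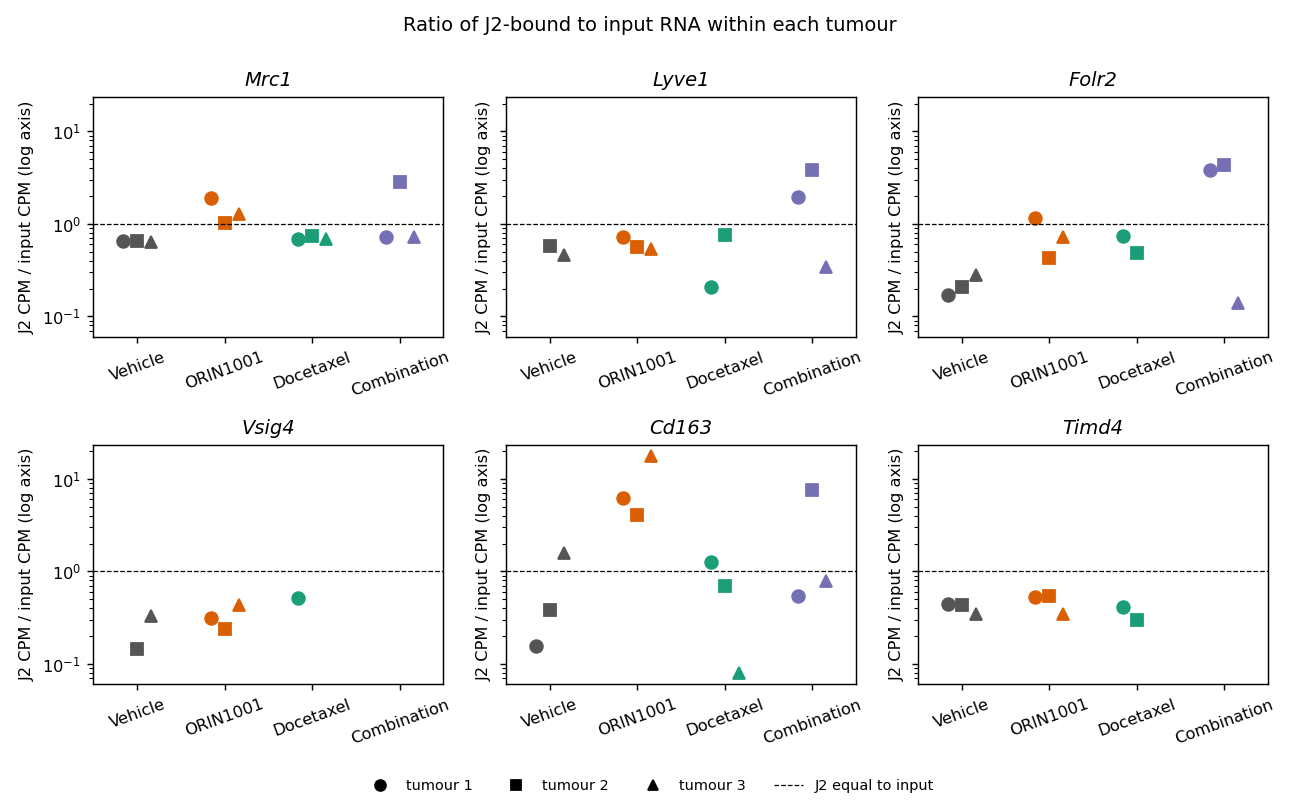
Ratio of J2 to input CPM within each tumour (log axis) for the 6 genes, grouped by treatment; a ratio of 1 means an equal share in both libraries, and tumours with 0 counts in either library are left out. Cd163 lies between 4.08 and 17.9 in the ORIN1001 tumours, and Mrc1 between 0.638 and 0.661 in the vehicle tumours.

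The change of J2 enrichment between treatments was tested in the same fit. From vehicle to ORIN1001 all 6 estimates were positive and 0 passed, beside 0% of all genes, with 2 of the 6 and 605 genes at an unadjusted p under 0.05. Cd163 changed most, by 3.75 ± 0.99 (unadjusted p = 0.0018, adjusted p = 1), followed by Folr2 (1.62 ± 0.78) and Mrc1 (1.05 ± 0.40, unadjusted p = 0.0202). Vsig4, Lyve1 and Timd4 were at 0.57 ± 0.69, 0.32 ± 0.69 and 0.19 ± 0.65. Mrc1 ratios of J2 to input were 0.661, 0.655 and 0.638 in vehicle tumours and 1.89, 1.01 and 1.28 in ORIN1001 tumours, without overlap. Those of Folr2 were 0.172, 0.206 and 0.283 against 1.15, 0.432 and 0.720, also without overlap, and those of Cd163 did not overlap either. Of 16495 genes counted in every library concerned, 9.11% lay higher in ORIN1001 in the same way. Fitted with limma-voom with sample weights, 3 of the 6 passed (Cd163, Folr2 and Mrc1) beside 21.3% of all genes. Without a filter on low counts 1 did (Cd163), beside 0.051% of genes.

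From vehicle to docetaxel 0 of the 6 changed, beside 0% of genes, with 0 of the 6 at an unadjusted p under 0.05 and estimates from -0.27 ± 0.93 for Lyve1 to 1.52 ± 0.93 for Folr2. From vehicle to the combination 1 of the 6 passed, Timd4 as lower (adjusted p = 0.0289), beside 29.9% of all genes (17.1% as lower). The call rests on 7 J2 counts in the vehicle group and 0 in the combination, and it was lost without vehicle tumour 1, 2 or 3, without combination tumour 3, without the low-count filter (adjusted p = 0.0867) and with DESeq2 (-3.09, adjusted p = 0.0885). Folr2 (2.05 ± 1.07), Cd163 (1.84 ± 1.18), Lyve1 (1.61 ± 0.87) and Mrc1 (0.85 ± 0.43) had positive estimates that did not pass.

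On the level scale, the ratio of ORIN1001 to vehicle means in J2 libraries was 29.7 for Cd163, 18.4 for Lyve1, 14.2 for Vsig4, 11.1 for Folr2, 6.03 for Mrc1 and 2.38 for Timd4. Without ORIN1001 tumour 3 these were 17.6, 7.28, 6.65, 6.41, 4.28 and 2.89. Cd163 thus had a ratio of 29.7 in J2 and 2.00 in the input, and Mrc1 6.03 and 3.16, while for Lyve1 the pair was 18.4 and 15.9.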

How the data were processed

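The deposited table holds counts, whole numbers per gene, for 24 libraries (12 tumours, each with an input and a J2 library). Per the submitters' processing notes, the authors made these counts on mm10 with featureCounts 2.0.3, STAR 2.7.3a and fastp 0.23.2. For the strand setting and for reads with several alignments, the rule is not given in the sources used here. The kit was stranded, per the labels' protocols. A second table of transposable element counts was not used here. A symbol was found for 53274 of 53465 gene rows, and each of the 6 genes was matched to 1 row.

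The counts were fitted with edgeR 4.0.16 in R 4.3.3 (TMM scaling, filterByExpr with a minimum count of 10 and a minimum total of 15, quasi-likelihood F test, two-sided, Benjamini-Hochberg adjustment over all genes, threshold 0.05). All 12 inputs were fitted with 1 coefficient per treatment (17768 genes). The J2 fit used all 24 libraries, with a block for each tumour (17338 genes), because the series' design pairs J2 and input. The deviations of input and J2 from their group means correlated above 0.1 in 10 of 12 tumours. All 6 genes passed the filter in both fits. SE is the log2 fold change divided by the square root of F. A limit for 0 counts is 3 counts, and it covers counting error only, as reads carried no molecular identifiers. Replicates of a group differed by more than counting noise, so no library was counted as a repeat. Chi-square per degree of freedom ran from 11.5 to 2257, the highest between the inputs of docetaxel tumours 2 and 3. The labels do not say more of the tumours than that they are biological replicates. Each p-value sets a difference against the spread between tumours, or between their J2 to input ratios in the J2 fit. That spread was estimated over all 4 treatments together. The fits were tested on simulated data.

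The members and lists were chosen with earlier results of these data known. The rule for named genes took all 6, the first 3 genes of each list and its 4 smallest p-values in the comparison described. Pf4 in the combination against ORIN1001, and others outside the rule that make up a small count, were named after their values were seen. Some genes that these rules take are not reported here. Likeness was computed at a prior count of 2 over genes whose average log2 CPM was 0 or more. Alternatives were DESeq2 1.42.0, limma-voom with sample weights (limma 3.58.1), other scalings, no filter, no ribosomal RNA and mitochondrial genes, only the treatments compared, a replicate block or none, and leaving out each tumour in turn. Promoters are from RefSeq (GRCm38.p6). Exon lengths and protein sequences were not used here.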

Additional observations from a re-analysis of the deposited data

Results flagged for a closer look

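The effect of J2 pulldown on Timd4 differed between vehicle and combination tumours by the test of that difference. The fitted change was -6.18 on the log2 scale, which is not a bound because the combination J2 libraries held 0 counts of Timd4, against 7 counts in the vehicle J2 libraries. Timd4 was already lower in J2 than in input in the vehicle tumours, with ratios of 0.449, 0.435 and 0.348. Against the limit of 3 counts pooled over the combination J2 libraries, Timd4 was at least 5.08-fold below its mean input level. This is neither a bound for each tumour nor the size of the difference between the groups. Taken 1 tumour at a time, the limits were 1.60, 1.32 and 0.300 CPM and the inputs 1.21, 1.13 and 0.884 CPM. Only in tumour 3 did the limit lie below the input. The adjusted p was 0.0289 by edgeR and 0.0885 by DESeq2, 0.0867 without the low-count filter, and 0.0581 to 0.172 without any 1 vehicle tumour or combination tumour 3. The combination J2 libraries had 23.5% to 59.1% of their counts at ribosomal RNA loci and mitochondrial genes, and the part of this in the result was not tested.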

How the results depend on the processing

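Inputs with the same replicate number in different treatments correlated above 0.1 in 1 of 18 pairs (-0.23 to 0.11), and the main input fit used no replicate block. Whether tumours of 1 replicate number shared a batch was not tested, and correlations over 3 tumours a group cannot settle it. With the replicate number as a block, 2 of the 6 genes passed for combination against ORIN1001 in place of 4 (4.04% of all genes), and Lyve1 was at 0.37 with docetaxel and 0.31 with the combination against vehicle, in place of negative values. Without the tumour as a replicate block, 1 gene passed for J2 enrichment with vehicle (25.9% of all genes) and 1 with ORIN1001 (15.9%), in place of 2 each.

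For the other settings the share of all genes passed stands in brackets. DESeq2 passed 1 gene for ORIN1001 against vehicle (0.191%). For combination against vehicle 1 passed with upper quartile scaling (6.98%), limma-voom with sample weights (38.8%), or only the treatments compared (18.8%), and for combination against docetaxel 1 with upper quartile scaling (7.96%) or limma-voom with sample weights (33.6%). That limma fit passed 1 for the interaction (22.4%), 6 for J2 enrichment with vehicle (72.1%), 6 with ORIN1001 (59.6%), 1 with docetaxel (49.9%), and 3 for its change with ORIN1001 (21.3%). It turned 4 estimates: Timd4 with docetaxel (0.051), Lyve1 (1.10) and Mrc1 (0.086) with the combination against vehicle, and Timd4 in the J2 change with ORIN1001 (-0.21). Without the low-count filter 5 passed for average J2 enrichment (29.1%), 1 for its change with ORIN1001 (0.051%) and 0 for its change with the combination (15.8%).

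Leaving out each tumour in turn (both libraries for J2), the count of genes passed ranged from 0 to 1 for combination against vehicle and against docetaxel, 0 to 4 for combination against ORIN1001, 2 to 5 for average J2 enrichment, 0 to 3 with vehicle, 1 to 3 with ORIN1001, 1 to 2 with the combination, and 0 to 2 for the change with the combination. Docetaxel estimates of Lyve1 ranged from -3.05 to 0.53 and of Timd4 from -0.80 to 0.12, and Lyve1 with the combination from -0.85 to 1.10; these crossed 0. Without combination tumour 2, Mrc1 passed in J2 with vehicle (-0.56) and ORIN1001 (0.50). The cause of these changes was not tested. Depth limits Vsig4 (4 to 38 counts per vehicle input), Lyve1 (3 to 89), Cd163 (13 to 29) and Timd4 (11 to 19).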

Other observations

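In the J2 libraries the ratio of the summed CPM of the 6 genes to that of the pan-macrophage genes, which do not include them, was 1.94%, 3.84% and 4.72% in vehicle tumours and 7.51%, 11.2% and 13.9% with ORIN1001. With docetaxel the values were 1.97%, 1.14% and 2.23%, and with the combination 1.35%, 3.58% and 1.35%. Every ORIN1001 tumour lay above every other tumour. Markers of T and NK cells summed to 15.2 to 26.5 CPM in combination inputs against 6.96 to 8.64 CPM with vehicle. With 0 counts taken as 0, the combination also had the highest mean of Timd4. Within the combination the sum was 21.5, 15.2 and 26.5 CPM in tumours 1, 2 and 3. Timd4 stood at 1.21, 1.13 and 0.884 CPM there, from 22, 18 and 19 counts. A relation between these markers and Timd4 was not tested. All 9 tested markers had a positive estimate with the combination against vehicle. The smallest adjusted p by edgeR was that of Cd3e (1.94 ± 0.56, adjusted p = 0.0603), which did not pass.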
